A study of Mus musculus with 10 samples.

Results

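Excitation-contraction coupling is the chain of events by which an electrical signal at the surface of a muscle fibre becomes a rise of calcium in its cytoplasm and then a contraction. A voltage sensor in the transverse tubule opens the release channel of the sarcoplasmic reticulum, calcium held by binding proteins in the reticulum flows out, and calcium pumps return it. Fast and slow fibres use different forms of several of these proteins, and calcium also drives the phosphatase calcineurin and the calmodulin-dependent kinases, which are known regulators of fibre type. Here 32 genes of this machinery were followed in mouse gastrocnemius, a calf muscle, with and without myostatin, a secreted protein that limits muscle growth. They were chosen by name, with earlier results of these data known. Of the 32, 30 had at least 1 probe set (a group of array probes for 1 transcript) annotated to that gene alone, out of 18193 genes so annotated. The calmodulin genes Calm2 and Calm3 had none and are not analysed here.

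The 10 mice were males of 7.5 months on a C57BL/6 background, and each was measured on 1 array. All of them carried the CAGG-CreER transgene, a Cre recombinase that tamoxifen activates, driven by a promoter active in most cell types, and all received 8 tamoxifen injections from 4 months of age. In the knockout group (5 mice) the myostatin genes were floxed, so that Cre deletes them after development in any tissue and not in muscle alone. Control mice (5) had normal myostatin genes with the same transgene and injections. The comparison asks how expression in mature muscle differs once myostatin is lost, and no probe set was annotated to myostatin itself, so its loss was not checked on these arrays.

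Values are log2 of the deposited intensity, on which 1 unit is a doubling, and each gene is represented by its probe set of highest mean over the 10 arrays. A probe set was tested where its mean over the arrays was at least 4. The fast fibre markers all passed this filter (10 of 10), as did the slow fibre markers (9 of 9). Marker means per array ran from 15.15 to 15.25 for fast fibres and from 12.42 to 14.04 for slow fibres. Of 8 markers used for heart muscle, 6 lay below the filter, among them Nppb, Myl7, Tnni3 and Mybpc3 at 2.10 to 2.28 on every array. Nppa ran from 2.34 to 3.01 and Myh6 from 2.50 to 5.51. The remaining markers, Myl4 and Tnnt2, averaged 9.28 and 7.17 over the arrays. Markers of cells other than fibres had lower values in knockouts for 9 of 9 fibroblast and tendon genes, 4 of 4 Schwann cell genes, 6 of 6 macrophage genes, 5 of 6 endothelial genes, 4 of 5 smooth muscle genes and 2 of 3 fat cell genes. The mean of the fibroblast and tendon genes ran from 10.86 to 11.31 in controls and from 10.06 to 10.89 in knockouts, and 1 of them, Col1a2, passed the threshold used below. Means ran from 8.25 to 8.83 and from 7.96 to 8.63 for Schwann cell genes, and from 8.73 to 9.43 and from 7.95 to 9.24 for macrophage genes. They ran from 8.42 to 8.79 and from 8.33 to 8.55 for endothelial genes, and from 9.14 to 9.60 and from 8.95 to 9.33 for smooth muscle genes. Fat cell genes averaged 9.74 in controls (9.42 to 10.01) and 9.69 in knockouts (8.52 to 10.24). So these lists were lower on average in knockout muscle, with overlapping ranges. The two-sided exact permutation p was 0.0159 for fibroblast and tendon genes, 0.0476 for endothelial genes and 0.0476 for smooth muscle genes. It was 0.0556 for Schwann cell genes, 0.143 for macrophage genes and 0.905 for fat cell genes. For the fast fibre markers, of which 9 of 10 had higher values in knockouts, it was 0.175. These p-values were not adjusted for the number of lists. The 3' minus 5' difference of Gapdh, a measure of RNA integrity, averaged 0.49 (SD 0.03) over the 5 control arrays and 0.45 (SD 0.03) over the 5 knockout arrays (two-sided exact permutation p = 0.0317). That of actin averaged 1.47 (SD 0.06) over controls and 1.40 (SD 0.05) over knockouts (two-sided exact permutation p = 0.0873). The part of these differences in the results below was not tested, and in whole muscle fewer cells of a type and less RNA per cell cannot be told apart.

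None of the 30 genes passed the threshold of 0.05 on the adjusted p (limma, two-sided, Benjamini-Hochberg over 21154 probe sets), where 0.131% of all 10704 genes tested did so. At an unadjusted p under 0.05 the count was also 0 of 30, against 8.9% of all genes. In none of the 30 did the control and knockout values fail to overlap, against 2.63% of all genes. The median difference between knockout and control was 0.0036 over the 30 genes and -0.0049 over all genes. Higher knockout values were found for 18 of the 30 and lower values for 12, where 48.5% of all genes had higher values.

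**Figure D1:**
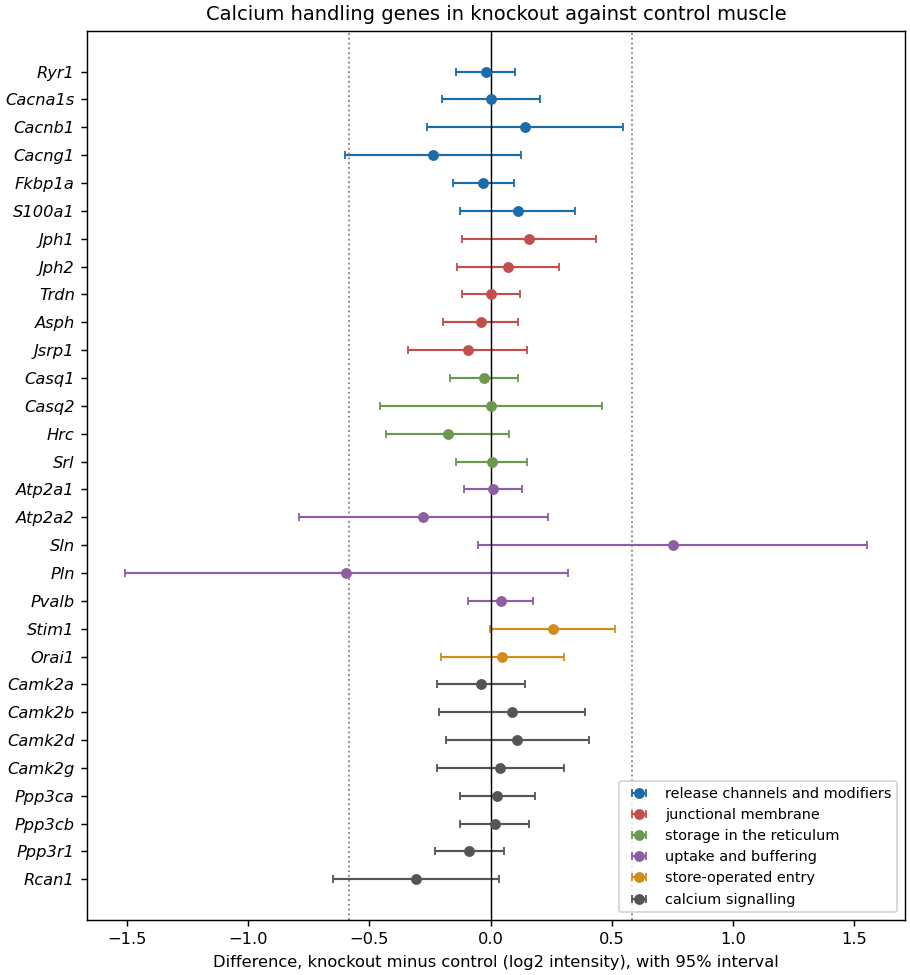
Difference between knockout and control muscle for the 30 calcium handling genes (log2 intensity, points) with the 95% interval of the fit (bars), coloured by role, with dotted lines at a 1.5-fold change in either direction. The intervals of all 30 genes include 0, and those of Sln, Pln, Atp2a2, Cacng1 and Rcan1 reach beyond the dotted lines.

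A missed threshold does not show that a gene was unchanged, so the intervals carry the information. For 25 of the 30 genes the 95% interval lay within a 1.5-fold change in either direction, and for 13 it lay within a 1.2-fold change. Over all genes the shares were 67.6% and 20.7%. Over all 74 tested probe sets of the 30 genes, dimmer ones included, they were 66.2% and 31.1%. The 5 genes with wider intervals were Cacng1, Atp2a2, Sln, Pln and Rcan1. The highest value on each array lay between 16.01 and 16.07, and differences close to that ceiling can be compressed, so a narrow interval there is narrow on this scale only.

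The release machinery starts with Ryr1, which encodes the calcium release channel of the reticulum. Its values were 14.53, 14.56, 14.48, 14.56 and 14.50 in controls and 14.46, 14.52, 14.48, 14.53 and 14.53 in knockouts. The groups overlapped almost completely, with a difference of -0.020 (95% interval -0.14 to 0.10, adjusted p = 0.986). Cacna1s, the voltage-sensing subunit of the tubule channel that is coupled to Ryr1, was at 11.93, 11.77, 11.56, 11.66 and 11.63 in controls and at 11.57, 11.67, 11.67, 11.86 and 11.80 in knockouts. The highest value belonged to control 1 and the lowest to control 3, so the span of the controls took in every knockout. Its difference was 0.0024 (-0.20 to 0.20).

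The accessory subunits of the tubule channel were less precisely measured. Cacnb1, its beta subunit, differed by 0.14 (-0.26 to 0.55), with control 3 low at 8.96 while the other 9 arrays lay between 9.45 and 9.90. Without control 3 it was -0.015, so the sign rested on that array. Cacng1, its gamma subunit, differed by -0.24 (-0.60 to 0.12, adjusted p = 0.823). Control 3, knockout 1 and knockout 3 were the low arrays for Cacng1, at 11.23, 11.23 and 11.21. These are also the 3 arrays with the highest bacterial hybridisation controls, which are added to each sample to follow hybridisation. The medians of these 3 arrays over all kept probe sets were the lowest, at 7.63, 7.72 and 7.64, against 7.78 to 7.91 on the others. The Cacng1 difference was -0.19 with the hybridisation controls as a covariate (adjusted p = 0.450) and -0.18 without the 3 arrays (adjusted p = 0.444). With the arrays centred on their medians it was -0.23 (limma, adjusted p = 0.620). The part of this array-wide shift in the low values was not tested. Single arrays left out gave from -0.36 without control 3 (adjusted p = 0.496) to -0.17 without knockout 3 (adjusted p = 0.853). Fkbp1a, an immunophilin bound to the release channel, differed by -0.030 (-0.16 to 0.096), and S100a1, a calcium sensor that modulates the channel, by 0.11 (-0.13 to 0.35). The name of the Fkbp1a probe set marks it as one whose probes can match other transcripts, as do those of Cacnb1 and S100a1. All other tested Fkbp1a probe sets had the opposite sign, from 0.015 to 0.034.

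The junctional membrane holds the tubule and the reticulum together. Jph1 and Jph2, the junctophilins that tether the membranes, differed by 0.16 (-0.12 to 0.44) and 0.071 (-0.14 to 0.28), and Jph1 by 0.063 without control 1. Asph, a locus that encodes junctin and an aspartyl hydroxylase, differed by -0.041 and Jsrp1, a junctional protein that binds the tubule channel, by -0.095. Trdn encodes triadin, which links the release channel to the calcium store, and its brightest probe set read 14.79 (SD 0.04) over the 5 controls and 14.80 (SD 0.03) over the 5 knockouts.

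Probe sets of 1 gene did not always give 1 answer, and Trdn is the clearest case. Of its 6 probe sets, 5 differed by between -0.059 and 0.0021, while the remaining one gave 0.56 ± 0.18 (SE, unadjusted p = 0.0117, adjusted p = 0.473). On that probe set the controls read 8.49, 8.65, 7.87, 8.40 and 8.36 and the knockouts 8.49, 9.22, 8.77, 9.21 and 8.86. Knockouts 2 to 5 lay above all controls and knockout 1 lay among them. Jph1 has a second, dimmer probe set with the same tendency, at 0.48 ± 0.18 (unadjusted p = 0.0248, adjusted p = 0.568). Its controls read 6.64, 6.78, 6.22, 6.08 and 6.02 and its knockouts 6.99, 6.89, 6.35, 6.97 and 6.95, with knockout 3 among the controls. Of the 74 kept probe sets of the 30 genes, 3 had an unadjusted p under 0.05 (limma), against 7.69% of all probe sets, and none passed after adjustment, against 0.0993%. Which transcripts the single probe sets read is not given in the annotation used here.

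**Figure D2:**
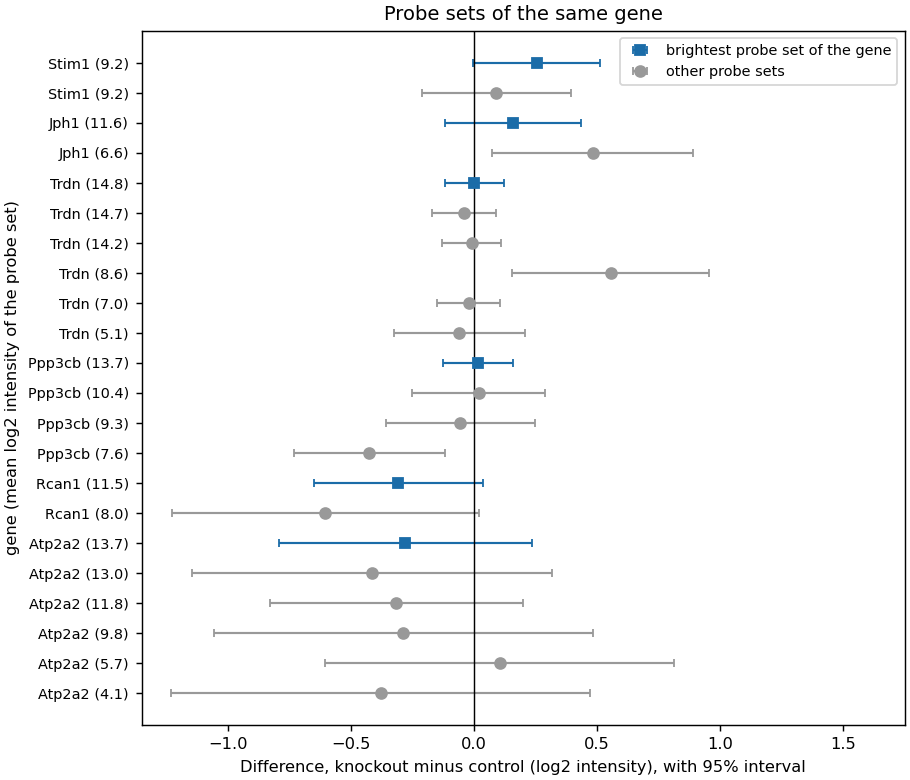
Difference between knockout and control (log2 intensity) with its 95% interval for each kept probe set of 6 genes, with the mean log2 intensity of the probe set in brackets and squares for the brightest one. The intervals that leave out 0 belong to 1 dimmer probe set each of Jph1 (0.48), Trdn (0.56) and Ppp3cb (-0.42).

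In the reticulum, calcium is held by calsequestrin. Casq1 is its main form in fast fibres, and Casq2 is a form found in slow fibres and heart. Casq1 was at 13.89, 14.05, 13.91, 13.90 and 13.88 in controls and at 13.81, 13.95, 13.90, 13.95 and 13.87 in knockouts. Casq2 was at 10.56, 10.87, 10.66, 10.55 and 11.10 in controls and at 10.29, 10.79, 11.44, 10.50 and 10.71 in knockouts. Neither separated the groups, with differences of -0.028 (-0.17 to 0.11) for Casq1 and 0.0022 (-0.45 to 0.46) for Casq2. The genes differed in how far mice of the same group lay apart, with a within-group SD of 0.064 for Casq1 and 0.35 for Casq2. The name of the Casq2 probe set also marks it as one whose probes can match other transcripts. The other store proteins were Hrc, a histidine-rich calcium binder, at -0.18 (-0.43 to 0.078, and -0.071 without knockout 4), and Srl, sarcalumenin, at 0.0049 (-0.14 to 0.15).

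The start regions of both calsequestrins and of the fast-fibre pump are shown as examples of forms found in fast and slow fibres. The promoter table does not hold that of the slow-fibre pump. The sequences are from RefSeq (GRCm38.p6), whose table here matched 20 of the 32 genes with 24 promoters, and each run is the 250 bases before the start, written 5′ to 3′ on the strand of the gene. Capitals mark the E-box CAGCTG, a site form bound by myogenic factors such as MyoD, and the MEF2 motif, both searched on both strands and without overlap here. Casq1 lies at chr1:172219896-172220145 (minus strand), Casq2 at chr3:102086165-102086414 (plus strand) and Atp2a1, the pump of fast fibres, at chr7:126463074-126463323 (minus strand).
Casq1: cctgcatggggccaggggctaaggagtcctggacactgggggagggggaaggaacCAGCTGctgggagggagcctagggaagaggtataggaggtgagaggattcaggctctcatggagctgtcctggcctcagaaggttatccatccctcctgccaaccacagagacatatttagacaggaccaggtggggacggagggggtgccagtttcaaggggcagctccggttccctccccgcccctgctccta
Casq2: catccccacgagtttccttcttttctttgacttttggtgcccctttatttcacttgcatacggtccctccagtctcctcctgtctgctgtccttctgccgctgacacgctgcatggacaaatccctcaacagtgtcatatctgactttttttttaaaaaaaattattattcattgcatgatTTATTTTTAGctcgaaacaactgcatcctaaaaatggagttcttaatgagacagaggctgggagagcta
Atp2a1: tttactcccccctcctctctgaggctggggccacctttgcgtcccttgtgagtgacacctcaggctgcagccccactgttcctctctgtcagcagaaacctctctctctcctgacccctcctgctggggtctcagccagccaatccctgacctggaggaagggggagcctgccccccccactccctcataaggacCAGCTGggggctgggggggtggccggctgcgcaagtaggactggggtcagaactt
The windows of Casq1 and Atp2a1 each held 1 E-box and no MEF2 motif, with the E-box beginning 195 and 55 bases before the start. That of Casq2 held 1 MEF2 motif, 69 bases before the start, and no such E-box. Among all 32851 promoters of the table, 13% held the E-box and 1.69% the MEF2 motif in this window. Among the 24 promoters of the 32 listed genes, Calm3 included, 8 held the E-box and 2 the MEF2 motif. The 8 include overlapping windows of Jph2 that hold the same E-box, so that site is counted more than once. The second MEF2 motif was in a window of Pvalb, a fast-fibre gene with no E-box in either of its windows, so the motifs did not divide the fast-fibre genes from Casq2. Such matches describe the letters and do not show binding.

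Among the 5 genes of calcium return and buffering, none of which passed, Sln, Pln and Atp2a2 had wide differences between mice of the same group, while Atp2a1 and Pvalb were among the steadiest of the 30. Atp2a1, the calcium pump of fast fibres, was at 15.02, 15.04, 15.08, 15.04 and 15.04 in controls and at 15.03, 15.01, 15.11, 15.08 and 15.05 in knockouts. These 10 values span a narrow band, and the difference was 0.010 (-0.11 to 0.13). Pvalb, parvalbumin, the soluble calcium buffer of fast fibres, differed by 0.042 (-0.092 to 0.18). Both lie about 1 unit under the ceiling.

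Atp2a2, the pump of slow fibres and heart, was at 13.78, 13.86, 13.71, 13.73 and 14.20 in controls and at 12.76, 13.71, 14.19, 13.55 and 13.68 in knockouts. Knockout 1 lay well below every other mouse, while knockout 3 and control 5 were the highest. The difference was -0.28 ± 0.23 (SE, 95% interval -0.79 to 0.24, adjusted p = 0.875), and 5 of the 6 Atp2a2 probe sets had lower values in knockouts, from -0.41 to -0.28, while the sixth gave 0.10. Most of the difference rested on knockout 1, since it was -0.073 without that array, and it was -0.43 without knockout 3 (adjusted p = 0.619). Pln encodes phospholamban, a small membrane protein that inhibits the pump. It was at 8.31, 6.84, 6.80, 6.98 and 7.37 in controls and at 5.66, 6.78, 7.75, 6.21 and 6.93 in knockouts, with a difference of -0.60 ± 0.41 (adjusted p = 0.825). Here too knockout 1 was lowest, but the highest value was that of control 1. The Pln difference was -0.33 without control 1 and -0.34 without knockout 1.

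Sln encodes sarcolipin, a short pump inhibitor related to phospholamban, and had the largest difference of the 30 genes in size. Controls read 8.49, 8.68, 8.66, 7.67 and 9.64 and knockouts 8.83, 9.27, 10.23, 9.50 and 9.07. Every knockout lay above 4 of the 5 controls, and control 5 was higher than 4 of the 5 knockouts. The difference was 0.75 ± 0.36 (SE, 1.68-fold, 95% interval -0.050 to 1.55), with an unadjusted p of 0.0632, an adjusted p of 0.693 and an exact permutation p of 0.0873 (two-sided, where the smallest possible is 0.00794). It did not pass. Single arrays left out gave from 0.51 without control 4, the low control (adjusted p = 0.847), to 1.0 without control 5 (adjusted p = 0.678). The second Sln probe set lay below the filter.

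**Figure D3:**
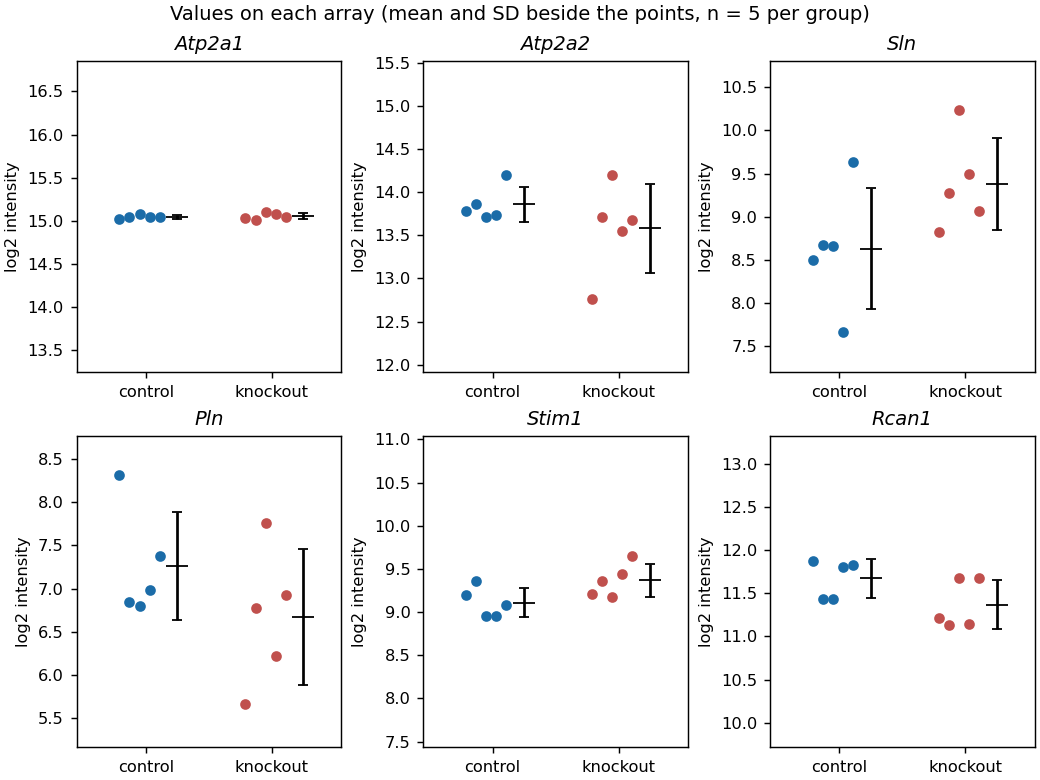
Log2 intensity on each array for Atp2a1, Atp2a2, Sln, Pln, Stim1 and Rcan1, with controls in blue, knockouts in red, and the mean and SD beside them (n = 5 per group), each axis spanning the same number of log2 units. Atp2a1 hardly varied, while Pln spanned 5.66 to 8.31 and Sln 7.67 to 10.23 with overlapping groups.

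The spread between mice of the same group therefore differed strongly across the genes. The within-group SD ran from 0.031 for Atp2a1, 0.033 for Trdn and 0.034 for Ryr1 up to 0.35 for Casq2, 0.39 for Atp2a2, 0.62 for Sln and 0.71 for Pln, with a median of 0.17, against 0.22 over all genes tested. Only 5 of the 30 had an SD above 0.3, the remaining one being Cacnb1 (0.30), against 32.8% of all genes. Over all 74 tested probe sets of these genes, dimmer ones included, 35.1% had an SD above 0.3, with a median of 0.20. So the low share holds for the brightest probe sets only. The 3 steadiest genes are also among those read nearest the ceiling, and the part of this in the order was not tested.

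**Figure D4:**
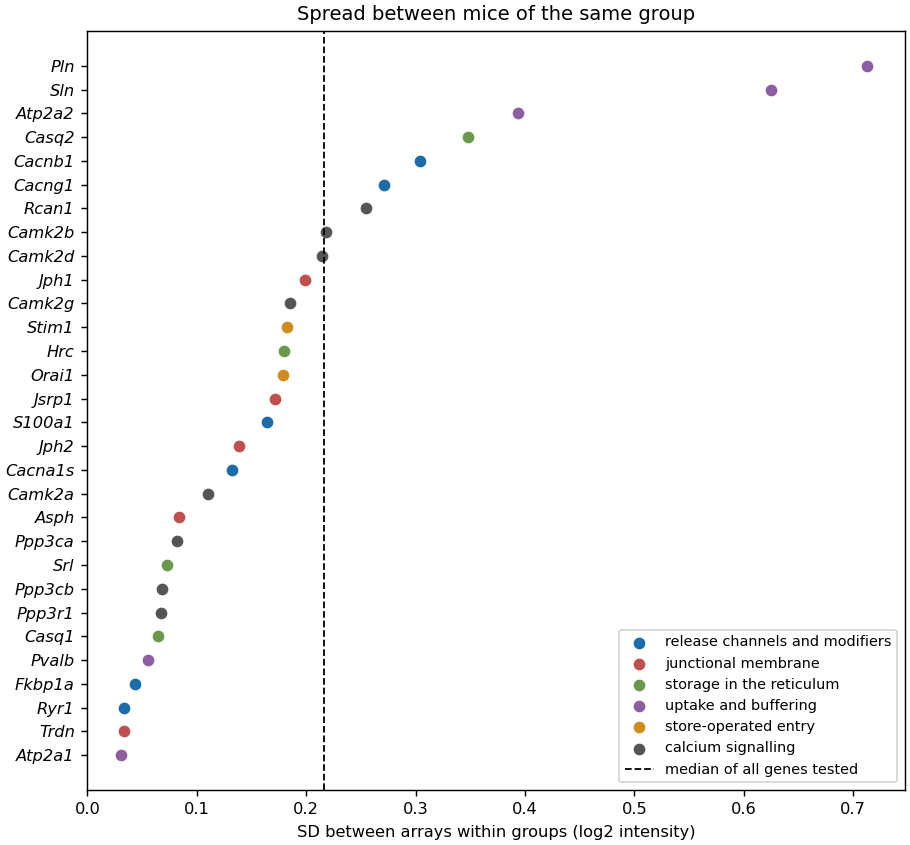
SD between arrays within the groups (log2 intensity, n = 5 per group) for each of the 30 genes, coloured by role, with the median over all genes tested as a dashed line (0.22). Pln, Sln, Atp2a2 and Casq2 lie farthest to the right and Atp2a1, Trdn and Ryr1 farthest to the left.

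Genes of the slow fibre programme varied alongside some of them. The mean of the 9 slow fibre markers was 13.33, 13.47, 13.06, 13.29 and 14.04 in controls and 12.42, 13.21, 13.89, 13.12 and 13.23 in knockouts. Knockout 1 was lowest and control 5 and knockout 3 highest, as for Atp2a2. All 9 markers had lower values in knockouts, from -0.54 for Tnni1 to -0.04 for Myl3, none passed, and the marker mean averaged 13.44 (SD 0.37) over controls and 13.17 (SD 0.52) over knockouts, with 5 mice in either group (exact permutation p = 0.341). Over the 10 arrays Atp2a2 followed this mean with Pearson's r of 0.960 (permutation p = 0.00011, adjusted 0.0066) and Spearman's rho of 0.915 (p = 0.00048, adjusted 0.0288). Without knockout 1 and control 5, whose marker means were the most extreme, r was 0.952. It was the single relation to pass of 60 computed (30 genes against the slow fibre markers and against the hybridisation controls, limits of 0.05 on the adjusted p for r).

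The relations of the other genes to the slow fibre markers did not pass. Casq2 had r of 0.867 (permutation p = 0.00176, adjusted 0.0528) and rho of 0.758 (p = 0.0144, adjusted 0.114), with r of 0.881 without those 2 arrays. For Pln, r was 0.713 (p = 0.0232, adjusted 0.151) and rho 0.818 (p = 0.00516, adjusted 0.0619), with r of 0.552 without the 2 arrays. Camk2d, a kinase subunit, ran the other way, with r of -0.673 (p = 0.0302, adjusted 0.155), rho of -0.855 (p = 0.00286, adjusted 0.0572) and r of -0.815 without the 2 arrays. Asph had r of 0.762 (p = 0.00841, adjusted 0.101), rho of 0.709 (p = 0.0263, adjusted 0.158) and r of 0.665 without them. So genes outside the slow-fibre forms also had relations of this size. Sln had r of 0.438 (p = 0.200, adjusted 0.520), rho of 0.273 (p = 0.448, adjusted 0.672) and r of 0.461 without them. No correlation is given within the groups of 5 mice. Of the heart markers only Myl4 and Tnnt2 were above the filter, with lower knockout values of -1.12 and -1.02 (adjusted p = 0.137 and 0.607). For Myl4 the groups did not overlap, as in 2.63% of all genes. The mean of both markers averaged 8.76 in controls and 7.69 in knockouts (two-sided exact permutation p = 0.0159).

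**Figure D5:**
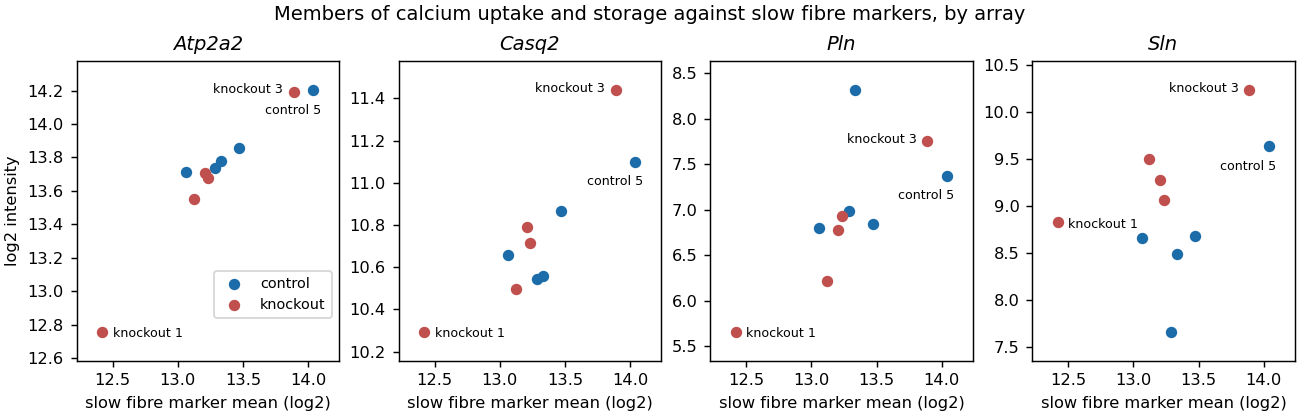
Log2 intensity of Atp2a2, Casq2, Pln and Sln on each array (vertical axis) against the mean of 9 slow fibre markers on that array (horizontal axis, log2), with controls in blue and knockouts in red. Atp2a2 rises with the markers (r of 0.960), while for Sln 4 of the 5 controls lie below all knockouts at any marker level.

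With the slow fibre marker mean as a covariate, an alternative chosen after seeing the data, the Atp2a2 difference was -0.056 and that of Pln -0.31. That of Casq2 became 0.19 (adjusted p = 0.768). The Sln difference was 1.04 ± 0.25 (SE, unadjusted p = 0.00289, adjusted p = 0.385). None of the 30 passed in that fit either.

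Calcium also enters the fibre from outside when the store is depleted. Stim1, the sensor of the store, had the lowest unadjusted p of the 30 genes. Its controls read 9.20, 9.36, 8.96, 8.96 and 9.08 and its knockouts 9.21, 9.36, 9.17, 9.44 and 9.65. Knockouts 4 and 5 lay above all controls, and control 2 was as high as knockout 2. The difference was 0.26 ± 0.12 (SE, 1.19-fold, 95% interval -0.0022 to 0.51, unadjusted p = 0.0516, adjusted p = 0.655, exact permutation p = 0.0635). The name of this probe set marks it as one whose probes can match other transcripts, and the second Stim1 probe set, of like intensity, gave 0.092 (adjusted p = 0.968). With the hybridisation controls as a covariate Stim1 reached 0.29 and an adjusted p of 0.164, the lowest of any of the 30 genes under any alternative. With the arrays centred on their medians the Stim1 difference was 0.27 (limma, unadjusted p = 0.00901, adjusted p = 0.339). Orai1, the channel that Stim1 opens, differed by 0.048 (-0.21 to 0.30).

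Among the calcium-driven signalling genes, the kinase subunits Camk2a, Camk2b, Camk2d and Camk2g differed by -0.038, 0.089, 0.11 and 0.040. On these brightest probe sets the intervals all lay within -0.22 to 0.41. All other kept Camk2a probe sets had the opposite sign, from 0.038 to 0.39, with an interval up to 1.34. The dimmer Camk2d probe sets ran from -0.13 to 0.52, and the second Camk2g probe set gave -0.074. The calcineurin catalytic subunits Ppp3ca and Ppp3cb differed by 0.028 and 0.018, and the regulatory subunit Ppp3r1 by -0.088. A dimmer Ppp3cb probe set was the only one of the 74 on which the groups did not overlap, against 2.06% of all probe sets. It read 7.87, 7.84, 7.72, 7.91 and 7.76 in controls and 7.57, 7.59, 6.91, 7.25 and 7.64 in knockouts (-0.42 ± 0.14 SE, unadjusted p = 0.0118, adjusted p = 0.475). The other 3 kept Ppp3cb probe sets gave -0.054 to 0.019, so the probe sets disagree.

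Rcan1 encodes an inhibitor of calcineurin and is itself a known target of calcineurin and the transcription factor NFAT. Its controls read 11.87, 11.43, 11.43, 11.81 and 11.82 and its knockouts 11.21, 11.13, 11.67, 11.14 and 11.67. Knockouts 1, 2 and 4 lay below all controls, and knockouts 3 and 5 lay among them. The difference was -0.31 ± 0.15 (SE, 0.81-fold, 95% interval -0.65 to 0.036, adjusted p = 0.717, exact permutation p = 0.111). Its second probe set gave -0.60 ± 0.28 (adjusted p = 0.672), with the same sign. Neither passed. RefSeq gives Rcan1 more than 1 start, and the window before the downstream one is shown because the NFAT-responsive transcript is known to begin inside the gene. It lies at chr16:92400079-92400328 (GRCm38.p6, minus strand), with capitals for the NFAT core GGAAA on either strand.
Rcan1 downstream start: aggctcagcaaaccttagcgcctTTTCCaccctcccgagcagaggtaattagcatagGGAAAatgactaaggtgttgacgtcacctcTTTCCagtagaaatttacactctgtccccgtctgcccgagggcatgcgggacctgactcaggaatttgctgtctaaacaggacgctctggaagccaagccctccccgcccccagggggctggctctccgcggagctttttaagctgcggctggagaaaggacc
This window held 3 such cores, beginning 227, 193 and 163 bases before the start, and the window of the upstream start held 0. Windows with at least 3 made up 6.39% of all promoters and those with at least 1 made up 55.6%. The cores were not linked to any measured change here.

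Other genes of calcium handling, 58 listed by their textbook roles with earlier results of these data known, gave a similar picture. Of these, 44 were tested, 8 lay below the filter and 6 had no probe set of their own name. None of the 44 passed (limma), against 0.131% of all genes, and 2 had an unadjusted p under 0.05, against 8.9% of all genes. Their median difference was 0.0048. Tmem38b, a cation channel of the reticulum, read 12.34, 12.46, 12.45, 12.57 and 12.48 in controls and 12.67, 12.58, 12.57, 12.77 and 12.61 in knockouts, without overlap, though control 4 came within rounding of knockout 3. It differed by 0.18 ± 0.07 (SE, unadjusted p = 0.0276, adjusted p = 0.574). Nfat5, a transcription factor of the NFAT family that calcineurin does not control, differed by -0.25 ± 0.10 (unadjusted p = 0.0256, adjusted p = 0.568). Capn3, a calcium-dependent protease of muscle, had -0.15 and Nfatc2, a transcription factor that calcineurin activates, 0.30, and neither reached an unadjusted p of 0.05. Besides Tmem38b only Micu2, a regulator of calcium uptake into mitochondria, had groups that did not overlap (0.12, adjusted p = 0.723), which makes 2 of 44 against 2.63% of all genes. Micu2 was picked out after its values were seen.

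No single array carried the extremes of all 30 genes. Control 3 and knockout 1 each held the lowest value for 7 genes, while control 1 and knockout 3 each held the highest for 7. The hybridisation controls averaged 13.19 (SD 0.13) over control mice and 13.23 (SD 0.22) over knockout mice (5 arrays per group, exact permutation p = 0.722). Against them, Pvalb had r of 0.823 (permutation p = 0.00387, adjusted 0.0737, rho 0.867 with p = 0.00219, adjusted 0.0572), which fell to 0.554 without knockout 3 and knockout 1. Cacng1 had r of -0.824 (p = 0.00491, adjusted 0.0737, rho -0.636 with p = 0.0542, adjusted 0.222), and -0.625 without them. None of the 30 relations to these controls passed.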

How the data were processed

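RNA of 10 gastrocnemius muscles, 5 per group, was labelled as biotinylated cDNA with NuGEN kits and measured on 1-colour arrays, per the labels. The authors deposited a linear intensity for 45101 probe sets per array, made with GCRMA per the submitters' processing notes. Which version was run is not given in the sources used here. The log2 was taken here without further normalization. Names came from the platform annotation (34958 with 1 symbol, 932 with several, 9211 not listed), and those with several symbols were not used for a gene. Probe sets with a mean log2 of 4 or more were kept and 64 array controls left out, which left 21154. The test was that of limma 3.58.1 (lmFit and eBayes, R 4.3.3), with Benjamini-Hochberg adjustment over all kept probe sets, and the script was tested on simulated data. The members and gene lists were chosen with earlier results of these data known. All 30 measured members are named, with the wider list's 4 genes of lowest p. Relations across arrays used 100000 permutations. No pair of arrays held identical values (correlations 0.944 to 0.991). The design text speaks of 5 mice per group, so each array was taken as 1 animal, and their number limits the precision. Alternatives covered the filter, normalization, variance model, array weights, replicate block, probe set choice, a floor, the hybridisation controls and each array left out. Figures used matplotlib 3.10.9.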

Additional observations from a re-analysis of the deposited data

Results flagged for a closer look

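Groups of 5 arrays were checked for a value far from the rest of its group, in 80 groups (30 genes, 9 marker list means and the hybridisation controls). Of these, 6 held one, where chance gives about 1 in 20, or 4. Control 3 was low for Cacng1 (11.23, against 11.77 to 11.94 in the other controls), for Orai1 (8.66, against 8.91 to 8.95) and for Ppp3r1 (11.37, against 11.49 to 11.54). Control 3 also had the lowest median of the controls over all kept probe sets (7.63, against 7.78 to 7.88). Flags that share an array cannot be taken as separate events, so the count is not a test. Control 2 was high for Casq1 (14.05, against 13.88 to 13.91). Knockout 4 was low for Hrc (11.29, against 11.73 to 11.91). The Schwann cell marker mean was low in control 5 (8.25, against 8.69 to 8.83).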

How the results depend on the processing

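Under 22 alternatives, 1 of them chosen after seeing the data (the slow fibre marker covariate), the count of calcium handling genes past the threshold stayed at 0 of 30, as did that of the 44 others tested. The lowest adjusted p was 0.164. The sign changed under at least 1 alternative for 12 of the 30 genes, none of them called. The median difference over the 30 stayed between -0.011 and 0.018. The count of probe sets past the threshold over all genes, 21, was 11 with no filter, 36 after quantile normalization, 58 with a variance trend and robust fit, 67 with array weights, 1 with the replicate number as a block, 93 with the hybridisation controls as a covariate, 5 without the 3 arrays of highest hybridisation controls and 2 with the slow fibre markers as a covariate. Leaving out single arrays gave counts from 1 to 17. The split of 11 higher and 10 lower became 17 and 11 with median centring. Causes of these changes were not tested. With the replicate block 0 of the 30 genes passed. Arrays with the same number had deviations from their group means that correlated at -0.51, 0.13, 0.62, -0.20 and 0.19. No reference values were computed for these correlations, so they cannot show whether the numbers pair the mice. Atp2a1, Pvalb, Trdn and Ryr1 had the highest means of the 30 genes, from 14.51 to 15.08. Their differences may be compressed near the ceiling, which was not tested.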

Other observations

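Several relatives of the genes described lay below the filter of 4 in their mean. Fkbp1b, the heart form of the channel-bound immunophilin, ran from 3.0 to 5.02 over the 10 arrays. Atp2a3, a calcium pump of non-muscle cells, ran from 2.42 to 3.06 and Slc8a1, a sodium-calcium exchanger, from 2.33 to 3.65. Orai2 ran from 2.67 to 2.69. At these levels the method leaves little range, so no difference between groups is given.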
